A study of Homo sapiens with 24 samples.

Results

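The 31 genes described here are known transcriptional targets of the tumour suppressor p53, from its own inhibitor MDM2 to the death receptor FAS and the repair factor XPC. They were picked by gene name from a table of 63677 genes, with no threshold on a measured value but with earlier results of these data known, and each of the 31 names matched a gene. All 31 were among the 19377 genes tested, those with at least 0.5 RPKM (reads scaled to gene length and library depth) in at least 2 of 24 libraries. EDA2R and SPATA18 passed that filter through HepG2 alone, because their highest levels in SNU398 and SNU475 libraries were 0.036 and 0.0682 RPKM. Counts and medians of the members include both genes unless said otherwise. The study measured RNA in 3 human liver cancer lines, SNU475, SNU398 and HepG2, after inhibitors of DNA methyltransferases, of the histone methyltransferase EZH2, or of both. Each line received decitabine (5-Aza-CdR, a cytosine analogue that traps DNA methyltransferases) at 100 nM, GSK-126 (an EZH2 inhibitor) at 500 nM, both agents, or the vehicle DPBS, given daily for 3 days. SNU475 cells were harvested on day 21 and SNU398 and HepG2 cells on day 14, so a difference of SNU475 from the other lines cannot be told apart from a difference in harvest day. Each of the 12 groups held 2 libraries, A and B, all from cells labelled wild type with no engineered allele. Nothing says that A and B came from separate cultures, so the p-values measure only the spread between these libraries, which may be technical.

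p53 is a transcription factor held low by MDM2 and MDM4, which mark it for destruction or cover its activation domain. When DNA damage or another stress frees it, p53 binds pairs of a 10-letter element and raises genes that stop the cell cycle, repair DNA, kill the cell through mitochondria or death receptors, and limit p53 itself. The measurements here are of RNA, and neither p53 protein nor its binding was measured.

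Sequences upstream of the members show where that element stands and how rich in CpG, the dinucleotide that DNA methyltransferases act on, these starts are. RefSeq promoter windows (build GRCh38.p14, 250 bases before to 50 after each start) matched 23 of the 31 members by symbol and gave 35 windows, several of them overlapping alternatives of a gene. The p53 element, searched by its consensus name and reading alike on both strands, was found in 6 of the 35 windows (17.1%), against 2329 of 35116 windows over all genes (6.63%). The 6 are printed because they carry the element in members of 5 of the role groups below; capitals mark the 10-letter matches. The DDB2 window alone among them holds 2 matches, 1 base apart, which lie after the start; in AEN, FAS, PLK2, SESN1 and FDXR the first base of the match stands at -34, -122, -132, -49 and -11 from it.
AEN (chr15:88621286-88621335, plus strand): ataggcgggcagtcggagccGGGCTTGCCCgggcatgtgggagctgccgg
FAS (chr10:88991289-88991338, plus strand): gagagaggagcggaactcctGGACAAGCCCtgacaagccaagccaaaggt
PLK2 (chr5:58460189-58460238, minus strand): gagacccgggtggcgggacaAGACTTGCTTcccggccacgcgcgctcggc
DDB2 (chr11:47214959-47215003, plus strand): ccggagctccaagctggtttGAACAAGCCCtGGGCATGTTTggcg
SESN1 (chr6:109009008-109009057, minus strand): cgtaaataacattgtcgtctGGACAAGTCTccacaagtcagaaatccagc
FDXR (chr17:74872976-74873025, minus strand): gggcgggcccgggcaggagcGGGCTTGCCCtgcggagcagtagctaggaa

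A match is a stretch of letters, not a bound site, and a window without a match says only that these letters are not in it. Member windows held a median of 25 CpG, against 14 over all windows. PLK2 and TP53I3 lie far apart on this scale, with 40 and 9 CpG in their windows. The 250 bases before each start, shown next with each CpG in capitals, hold 37 and 6 of them. Both were among the 3 members that rose most after decitabine in SNU398, as described below. DNA methylation was not measured in these libraries.
PLK2 (chr5:58460087-58460336, minus strand): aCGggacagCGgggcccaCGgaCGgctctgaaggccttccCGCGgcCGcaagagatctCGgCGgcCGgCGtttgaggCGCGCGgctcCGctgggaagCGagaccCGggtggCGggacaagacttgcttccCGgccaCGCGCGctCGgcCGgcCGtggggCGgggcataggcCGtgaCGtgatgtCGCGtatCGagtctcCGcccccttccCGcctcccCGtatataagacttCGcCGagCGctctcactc
TP53I3 (chr2:24084835-24085084, minus strand): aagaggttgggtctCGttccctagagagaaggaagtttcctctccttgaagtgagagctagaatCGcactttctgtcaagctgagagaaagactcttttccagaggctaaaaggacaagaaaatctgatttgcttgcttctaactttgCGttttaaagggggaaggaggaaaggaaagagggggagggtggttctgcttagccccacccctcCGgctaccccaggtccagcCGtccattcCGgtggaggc

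The libraries held 32.6 to 60.4 M reads, read from the steps of their RPKM values, of which 57.2% to 69.5% lay in genes. SNU398 decitabine A and SNU475 DPBS A stood apart from their lines, judged by 11 hepatocyte markers such as ALB. The summed markers reached 62.7 RPKM in SNU398 decitabine A, with 8 of 11 at 1 RPKM or more, against 0.701 to 15.1 RPKM in the other 7 SNU398 libraries. They reached 89.5 RPKM in SNU475 DPBS A, with 9 of 11 at 1 RPKM or more, against 2.13 to 18.04 RPKM in the other 7 SNU475 libraries. HepG2 libraries summed to 8891 to 15380 RPKM, so this line carried the markers of its labelled tissue and the other lines did so weakly or not at all. Counts of called members, and of the gene lists at the end, that rest on either library are given with and without it. Spans of 16 of the 31 members overlap another annotated gene, 11 of them a protein-coding gene, and the strand setting of the counting is not given in the sources used here, so reads in those overlaps cannot be assigned with certainty. The longest overlaps among members described below are 23440 bases of TP53INP1 with NDUFAF6 and 13649 bases of POLH with GTPBP2.

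Under DPBS alone the 3 lines differed widely in their p53 targets. PLK2, a polo-like kinase that acts in growth arrest (hg19 chr5:57749809-57756087), stood at 53.4 and 52.7 RPKM in SNU475, at 0.208 and 0.238 RPKM in SNU398 and at 2.93 and 2.93 RPKM in HepG2. These levels did not overlap, and the log2 difference of SNU475 from SNU398 was 6.21. PHLDA3, an inhibitor of AKT signalling, stood at 12.1 and 11.9 RPKM in SNU475 and 0.991 and 0.859 RPKM in SNU398, against 12.1 and 11.6 RPKM in HepG2, so that SNU398 alone was low. EDA2R, a receptor of the TNF family, and SPATA18, which acts in mitochondrial quality control, were at 2.68 to 3.26 RPKM in HepG2 DPBS libraries and at or near 0 in both other lines. PMAIP1 (NOXA), a BH3-only protein that frees the mitochondrial death pathway, ran the other way, at 12.03 and 11.9 RPKM in SNU475 and 4.77 and 4.29 RPKM in SNU398, against 0.567 and 0.492 RPKM in HepG2.

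Differences were tested with limma on log2(RPKM + 0.5), a scale that understates the change of low genes, and called at a Benjamini-Hochberg adjusted p under 0.05 over all 19377 genes. SNU398 against HepG2 gave 31 called members, 6 higher and 25 lower, or 29 (6 higher, 23 lower) without EDA2R and SPATA18, whose lower calls the filter through HepG2 fixed, where 76.6% of all genes were called (40% higher, 36.5% lower). SNU475 against HepG2 gave 26 called members, 8 higher and 18 lower, or 24 (8 higher, 16 lower) without that pair (79.4% of all genes, 42.4% higher and 36.9% lower), and SNU475 against SNU398 gave 28, 17 higher and 11 lower (78.1%, 40% higher and 38.1% lower). The shares called were high for genes at large, so the counts describe how far apart the lines lie. The median log2 difference of the members was -0.87 in SNU398 against HepG2 and -0.53 in SNU475 against HepG2, beside 0.01 and 0.04 over all genes, and -0.73 and -0.23 without EDA2R and SPATA18. Without further scaling of the libraries those all-gene medians became 0.22 and 0.15, and in SNU398 against HepG2 the members split into 6 higher and 21 lower and all called genes into 64.2% higher in place of 52.3%, with TP53INP1, POLH and TP53I3 changing sign and losing their calls (0.04, 0.02 and 0.02). Without SNU475 DPBS A the counts were 26 against HepG2 (7 higher, 19 lower) and 27 against SNU398 (17 higher, 10 lower).

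**Figure D1:**
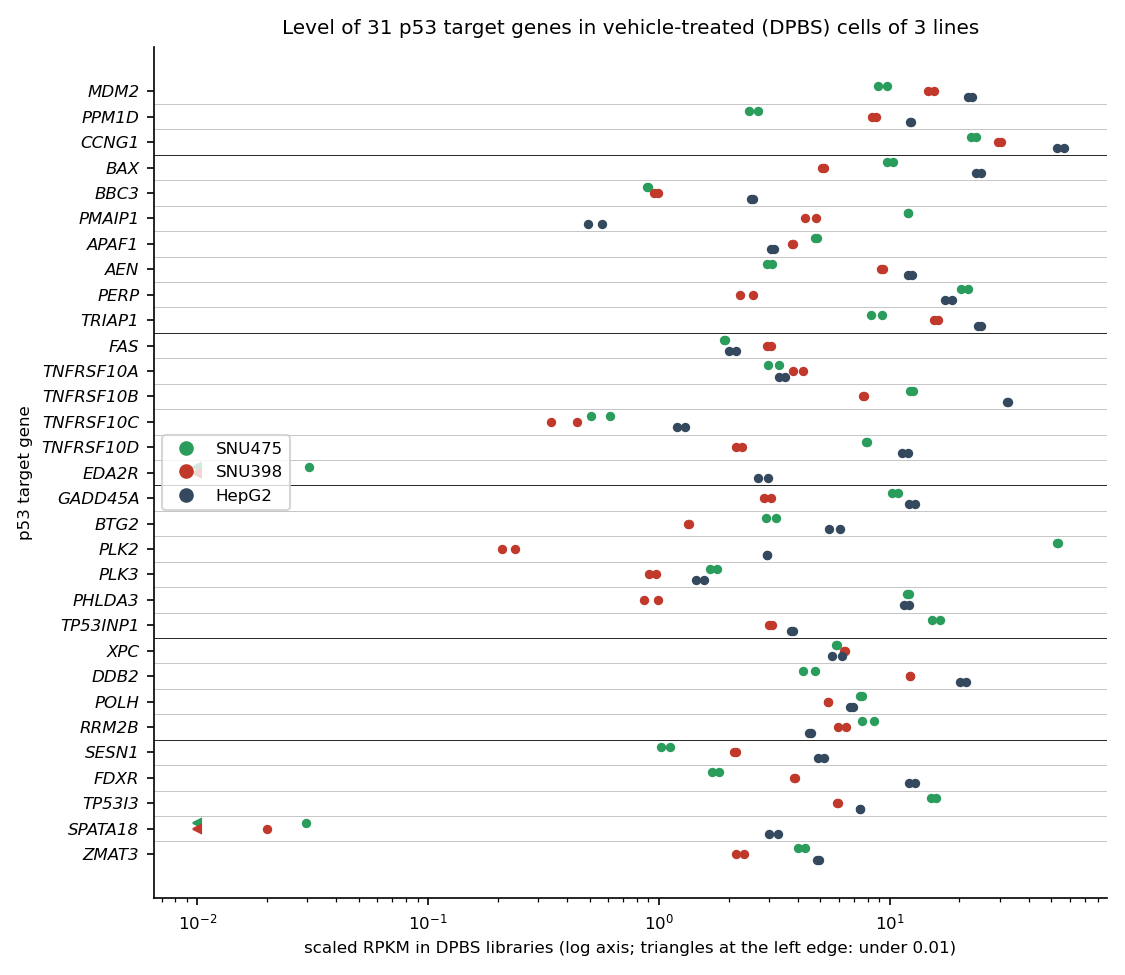
Levels of the 31 members in the DPBS libraries of the 3 lines, in RPKM on a log axis, with a point for each library. The points of PLK2 lie near 53 RPKM in SNU475 and near 0.2 RPKM in SNU398, and EDA2R and SPATA18 lie above 1 RPKM in HepG2 only.

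MDM4, which restrains p53 together with MDM2, moved in opposite directions in different lines. In HepG2 it stood at 3.49 and 3.46 RPKM under decitabine and at 4.18 and 4.23 RPKM under GSK-126, against 2.001 and 1.99 RPKM under DPBS (log2 changes 0.67 and 0.92). It changed by 0.16 under the combination, a call lost with quantile normalization (0.05). SNU398 MDM4 fell after decitabine (-0.40) and the combination (-0.38) and rose after GSK-126 (0.44). SNU475 MDM4 fell after each treatment (-0.41, -0.14 and -0.31), though the value for GSK-126 was not called in a fit to SNU475 alone (-0.13). CDKN1A, which encodes the cell-cycle inhibitor p21 and is the best known p53 target outside the member list, stood at 43.5 and 44.0 RPKM under decitabine and 78.0 and 71.5 RPKM under the combination in HepG2, against 18.9 and 18.2 RPKM under DPBS (1.22 and 1.98). GSK-126 alone left it at 16.1 and 16.7 RPKM in HepG2 (-0.17, a call lost without GSK-126 A or DPBS A, at -0.15 and -0.14). In SNU398 the CDKN1A changes were 0.68, 1.59 and 1.33 for decitabine, GSK-126 and the combination, and in SNU475 they were 0.07 (not called), 0.29 and 0.38.

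**Figure D2:**
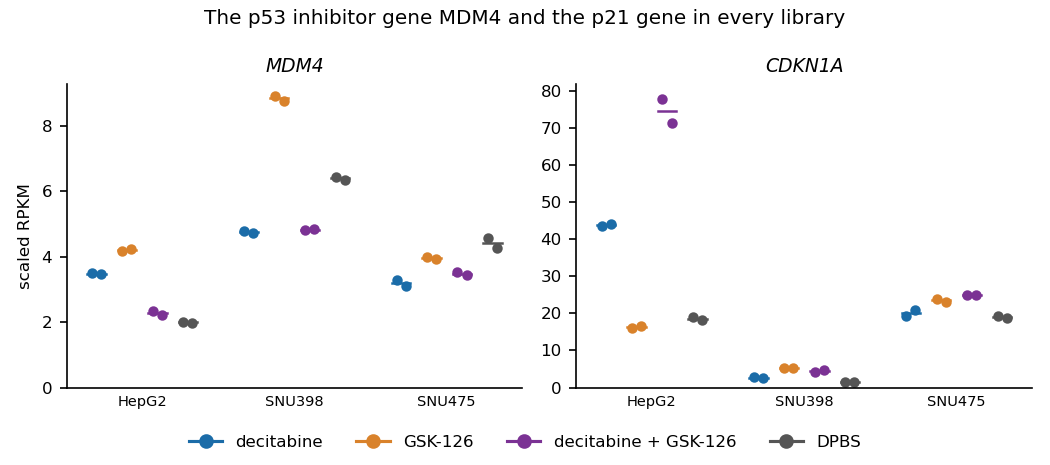
RPKM of MDM4 and CDKN1A in each of the 24 libraries, by line and treatment, with a point for each library. CDKN1A in HepG2 is highest under the combination, at 78.0 and 71.5 RPKM.

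Decitabine in HepG2 was followed by higher RNA of most p53 targets 14 days after treatment began. Of the 31 members 25 were called, 21 higher and 4 lower, where 54.2% of all genes were called (35.9% higher, 18.3% lower), and the median log2 change was 0.35, beside 0.07 over all genes. Of all called genes 66.3% were higher, a share of 53.3% without further scaling and 46.3% with quantile normalization, where the members split into 21 higher and 5 lower and into 20 higher and 4 lower. All 6 members of the growth arrest and signalling group rose, by a median of 0.79, as did 5 of 6 death receptors, 4 of 7 genes of mitochondrial apoptosis, 3 of 5 of metabolism, redox and RNA control, 2 of 4 of DNA repair and 1 of 3 of negative feedback. The group named death receptors also holds the decoy receptors TNFRSF10C and TNFRSF10D and the receptor EDA2R. The group named mitochondrial apoptosis also holds the nuclease AEN, the membrane protein PERP and the apoptosis inhibitor TRIAP1. Rises and falls within these groups therefore have no single meaning. In bulk RNA, more cells expressing a gene and more RNA per cell cannot be told apart, nor can fewer cells and less RNA per cell.

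TNFRSF10C, a decoy receptor that binds the death ligand TRAIL without signalling, stood at 3.12 and 3.04 RPKM under decitabine, against 1.29 and 1.198 RPKM under DPBS (log2 change 1.04 ± 0.08 SE, adjusted p = 3.2e-08). PLK3, a stress-activated polo-like kinase, stood at 3.39 and 3.33 RPKM under decitabine, against 1.44 and 1.56 RPKM under DPBS (0.95 ± 0.07, adjusted p = 4.4e-08). TP53INP1, a stress protein that acts with p53 in arrest and autophagy, stood at 7.65 and 7.63 RPKM under decitabine, against 3.73 and 3.79 RPKM under DPBS (0.93 ± 0.06, adjusted p = 4.5e-09). The treated libraries of all 3 lay above both DPBS libraries. PLK2, PHLDA3, BTG2 (an antiproliferative factor) and GADD45A (a damage-induced arrest protein), the other 4 of the growth arrest group, rose by 0.82, 0.76, 0.58 and 0.57.

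The falling members were few and small in size. TNFRSF10D, another TRAIL decoy receptor whose gene (hg19 chr8:22993101-23021543) lies next to TNFRSF10C (chr8:22941868-22974950), stood at 8.28 and 8.22 RPKM under decitabine, against 12.02 and 11.3 RPKM under DPBS (-0.47 ± 0.05, adjusted p = 2.8e-06). The signalling TRAIL receptors TNFRSF10A and TNFRSF10B rose by 0.49 and 0.22. CCNG1, cyclin G1, which helps activate MDM2, stood at 43.2 and 41.3 RPKM under decitabine, against 52.7 and 56.6 RPKM under DPBS (-0.37 ± 0.09, adjusted p = 0.003). APAF1, the scaffold of the apoptosome, and TRIAP1, an inhibitor of apoptosis, changed by -0.17 and -0.14, and both calls were lost when decitabine A was left out, TRIAP1 also without DPBS B.

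The feedback gene MDM2, the mitochondrial apoptosis genes BAX and BBC3 and the receptor gene FAS also rose. MDM2 stood at 31.1 and 30.3 RPKM under decitabine, against 21.8 and 22.8 RPKM under DPBS (0.45). BAX, which permeabilises the mitochondrial outer membrane, stood at 29.7 and 29.0 RPKM under decitabine, against 24.9 and 23.6 RPKM under DPBS (0.27). BBC3 (PUMA), a BH3-only activator of BAX, stood at 4.51 and 4.45 RPKM under decitabine, against 2.56 and 2.51 RPKM under DPBS (0.71). FAS stood at 2.80 and 3.03 RPKM under decitabine, against 2.02 and 2.16 RPKM under DPBS (0.40), and none of the 4 overlapped between the groups. The FAS span shares 734 bases with ACTA2, a smooth muscle actin gene that stood at 16.1 and 16.0 RPKM under decitabine and 20.25 and 19.8 RPKM under the combination in HepG2, against 7.82 and 7.55 RPKM under DPBS, and its part in the FAS values was not tested. ACTA2 belongs to 5 fibroblast and stellate cell markers, which summed to 17.6 and 17.4 RPKM under decitabine and 21.6 and 21.3 RPKM under the combination, against 8.45 and 8.25 RPKM under DPBS, with 3 of 5 higher after either. Of the repair genes, XPC and DDB2, which recognise damaged bases for nucleotide excision, rose by 0.61 and 0.35, and POLH, the polymerase that copies past lesions, and RRM2B, a ribonucleotide reductase subunit, changed by 0.03 and 0.14 without being called. Calls of 22 of the 25 members were kept in each of 12 alternatives, APAF1, TRIAP1 and PMAIP1 being the exceptions.

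**Figure D3:**
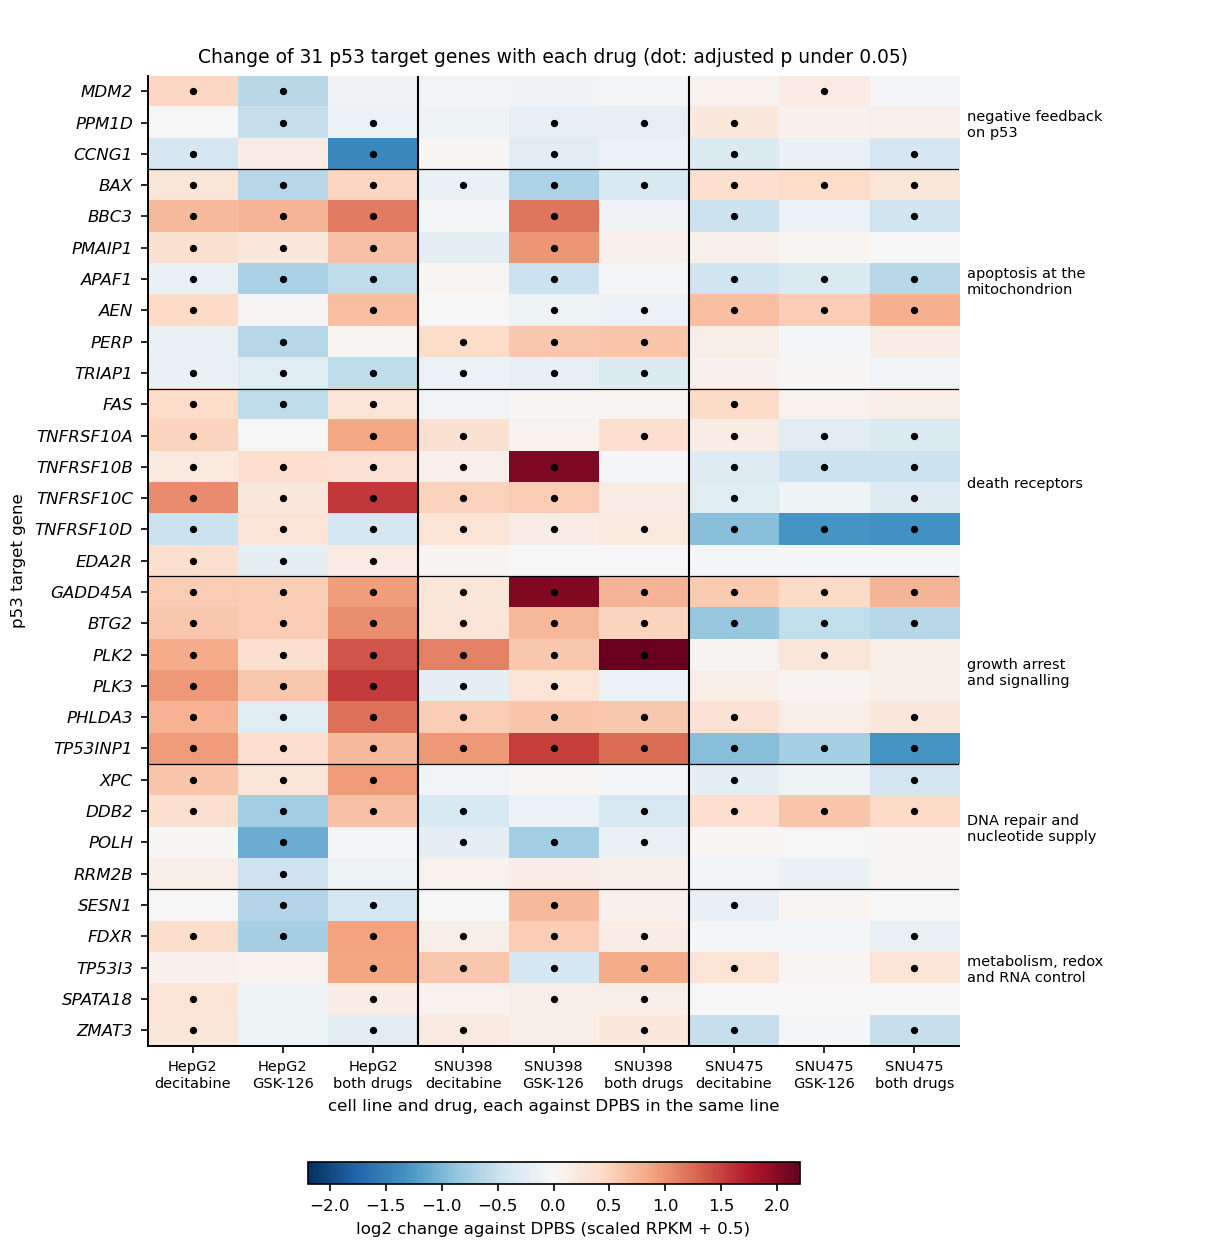
Log2 change of each of the 31 members against DPBS (colour) in the 9 drug comparisons, 3 per line, with dots marking calls by limma at an adjusted p under 0.05. HepG2 decitabine shows 21 higher and 4 lower calls, and HepG2 GSK-126 shows 11 higher and 14 lower.

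GSK-126 alone in HepG2 was followed by rises of some p53 targets and falls of others, within most role groups as well. It gave 25 called members, 11 higher and 14 lower, where 52.6% of all genes were called (31% higher, 21.7% lower), with a median of -0.09 beside 0.03 over all genes. Growth arrest genes again rose, 5 of 6, with PHLDA3 lower (-0.26). Death receptors split into 3 higher and 2 lower. Of the 4 repair genes 3 fell and XPC rose (0.26), and of 7 mitochondrial apoptosis genes 4 fell while BBC3 and PMAIP1 rose. Feedback genes fell in 2 of 3 and metabolism, redox and RNA control genes in 2 of 5 with none higher. BBC3 stood at 4.48 and 4.70 RPKM under GSK-126, against 2.56 and 2.51 RPKM under DPBS (0.75 ± 0.06, adjusted p = 7.3e-08). PLK3 stood at 2.23 and 2.84 RPKM under GSK-126, against 1.44 and 1.56 RPKM under DPBS (0.59 ± 0.07, adjusted p = 5.3e-06). BTG2 stood at 8.39 and 8.99 RPKM under GSK-126, against 5.45 and 6.05 RPKM under DPBS (0.56 ± 0.06, adjusted p = 9.2e-07). All 3 lay above DPBS in both libraries, PLK3 with the wider spread.

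POLH had the lowest log2 change of the 31 members in this comparison, at 2.92 and 2.94 RPKM under GSK-126, against 6.69 and 6.89 RPKM under DPBS (-1.09 ± 0.04, adjusted p = 1.2e-11). DDB2 stood at 12.1 and 11.9 RPKM under GSK-126, against 21.3 and 20.1 RPKM under DPBS (-0.76 ± 0.06, adjusted p = 1.9e-08). MDM2 stood at 14.8 and 14.2 RPKM under GSK-126, against 21.8 and 22.8 RPKM under DPBS (-0.60). BAX stood at 15.8 and 15.3 RPKM under GSK-126, against 24.9 and 23.6 RPKM under DPBS (-0.63). FAS stood at 1.22 and 1.32 RPKM under GSK-126, against 2.02 and 2.16 RPKM under DPBS (-0.55). FDXR, a mitochondrial electron carrier, APAF1 and SESN1, a sestrin that restrains growth signalling, also fell (-0.74, -0.72 and -0.65). TNFRSF10C, EDA2R and PMAIP1 were called at 0.23, -0.21 and 0.23, and each call was lost in at least 4 of 12 alternatives, among them leaving out GSK-126 A or DPBS B (TNFRSF10C), GSK-126 B or DPBS A (EDA2R), and GSK-126 A, GSK-126 B or DPBS B (PMAIP1).

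The combination in HepG2 was followed by rises of all 6 growth arrest genes, by a median of 1.12, and of 5 of 6 death receptors, with TNFRSF10D lower (-0.39). It called 27 members, 20 higher and 7 lower, where 66.5% of all genes were called (40.6% higher, 25.9% lower), with a median of 0.47 beside 0.08 over all genes. Higher genes made up 61.0% of all called genes, or 47.9% with quantile normalization, where 17 members were higher and 7 lower. Mitochondrial apoptosis genes split into 4 higher and 2 lower and metabolism, redox and RNA control genes into 3 and 2, while 2 of 4 repair genes rose and 2 of 3 feedback genes fell. TNFRSF10C stood at 4.85 and 4.42 RPKM under the combination, against 1.29 and 1.198 RPKM under DPBS (1.56 ± 0.08, adjusted p = 1.3e-10). PLK3 stood at 5.39 and 5.17 RPKM under the combination, against 1.44 and 1.56 RPKM under DPBS (1.53 ± 0.07, adjusted p = 8.3e-11). PLK2 stood at 7.97 and 8.86 RPKM under the combination, against 2.93 RPKM in both DPBS libraries (1.38 ± 0.06, adjusted p = 3.8e-11). Each of the 3 was higher under the combination than in any other HepG2 library.

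CCNG1 moved the other way, to 18.7 and 21.9 RPKM under the combination, against 52.7 and 56.6 RPKM under DPBS (-1.41 ± 0.09, adjusted p = 2.5e-09). TRIAP1 stood at 16.5 and 16.4 RPKM under the combination, against 24.1 and 24.8 RPKM under DPBS (-0.56 ± 0.04, adjusted p = 1.3e-08). BBC3 and BAX stood at 6.51 and 5.93 RPKM and at 35.3 and 32.1 RPKM under the combination, with log2 changes of 1.15 and 0.47 against DPBS. MDM2, at 20.3 and 21.6 RPKM under the combination against 21.8 and 22.8 RPKM under DPBS, was not called (-0.09). Without further scaling all 3 feedback genes, MDM2 among them, were called lower. FAS, at 2.35 and 3.02 RPKM under the combination against 2.02 and 2.16 RPKM under DPBS, was called (0.29), a call lost without combination B or DPBS A, with quantile normalization and in a fit to HepG2 alone (adjusted p up to 0.21 over 12 alternatives). PPM1D, a phosphatase that switches p53 off (-0.13), EDA2R (0.18) and SPATA18 (0.17) also lost their calls when a library was left out: any of the 4 for PPM1D, combination A or DPBS B for EDA2R, and DPBS A for SPATA18. The 11 hepatocyte markers summed to 8950 and 8891 RPKM under the combination, against 15370 and 15380 RPKM under DPBS. Of these markers 1 was called lower and 0 higher, with a median log2 change of -0.40. ALB stood at 2048.6 and 2163.6 RPKM, against 5410 and 5537.8 RPKM, and SERPINA1 at 1449.6 and 1458.5 RPKM, against 1232 and 1215 RPKM. The part of these markers in the changes of the members was not tested.

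**Figure D4:**
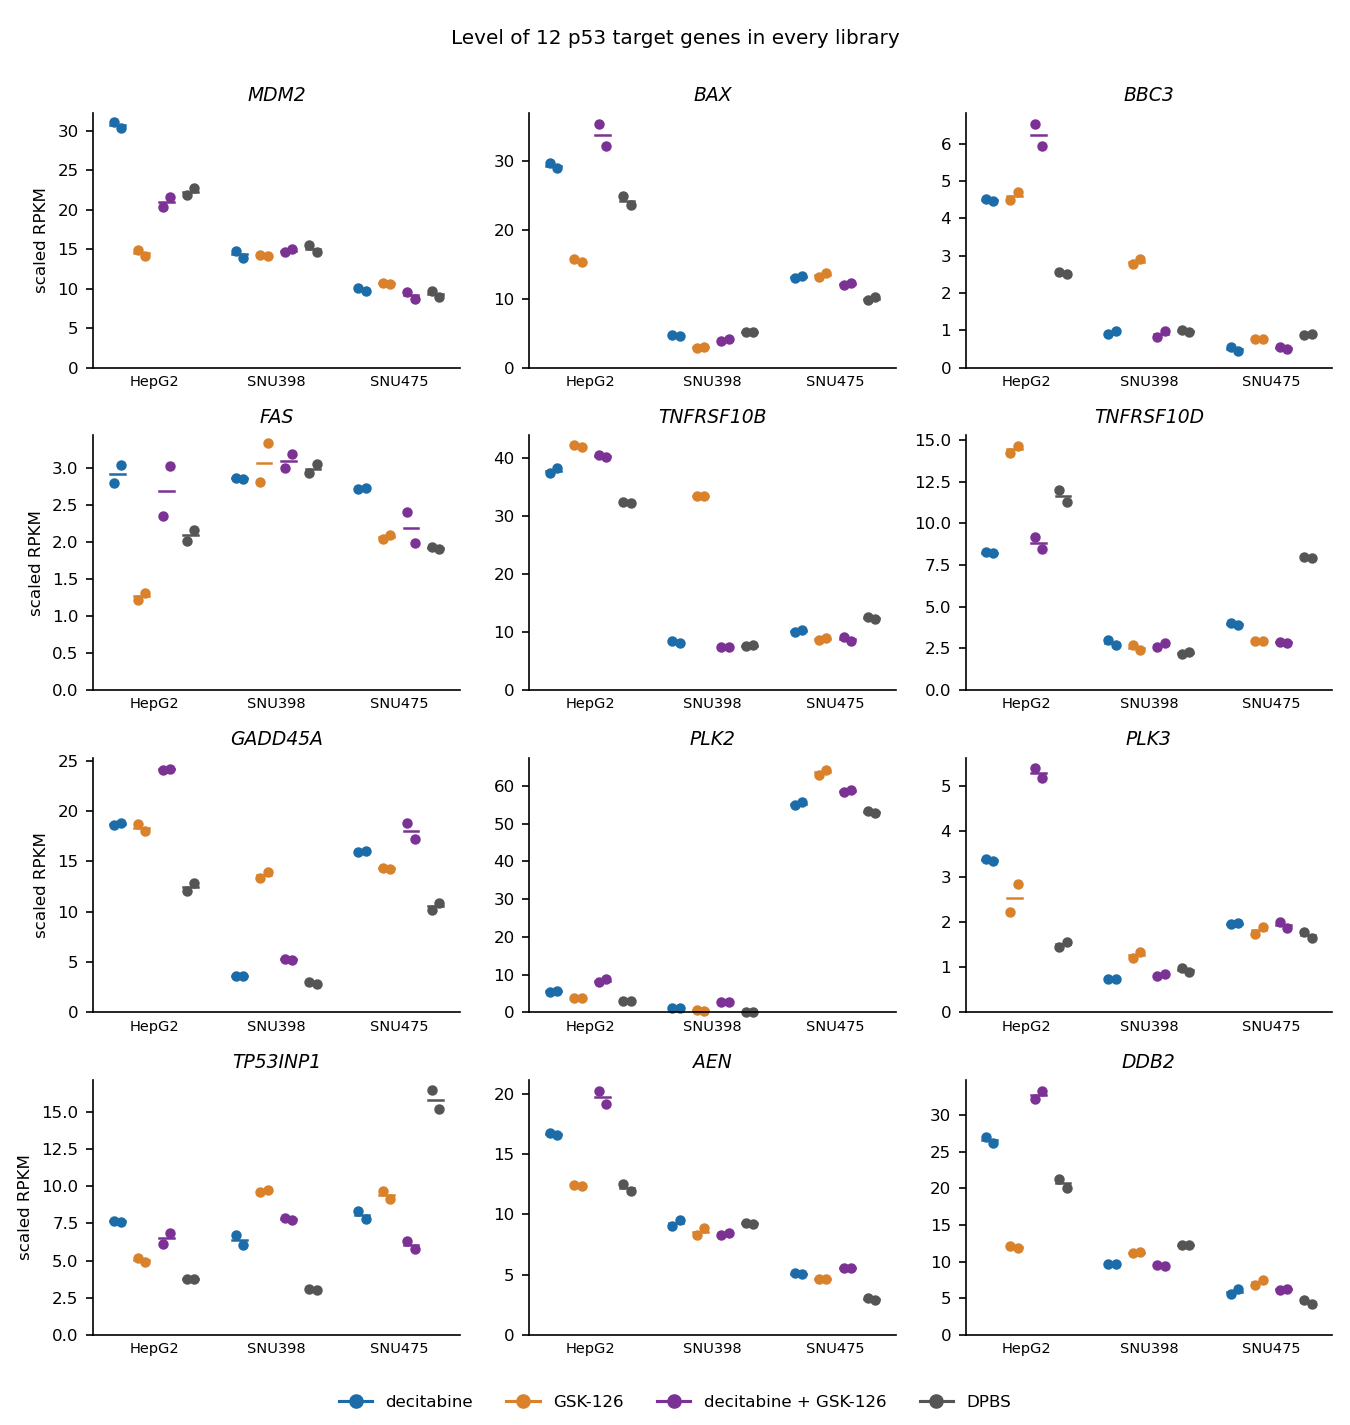
RPKM of 12 members in each of the 24 libraries, by line and treatment, with a point for each library. In HepG2 PLK2 and PLK3 lie highest under the combination, and in SNU398 TNFRSF10B lies at 33.4 and 33.5 RPKM under GSK-126 and under 9 RPKM elsewhere.

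Whether both agents together did more than the sum of each alone was tested as an interaction on the log2 scale. HepG2 had 22 members with a called interaction, 14 positive and 8 negative, where 53% of all genes were called (25.1% positive, 27.9% negative). Without further scaling the members split into 16 positive and 5 negative. FDXR had the largest positive one (1.25). It stood at 24.3 and 22.8 RPKM under the combination, 16.4 and 16.4 RPKM under decitabine and 7.39 and 7.19 RPKM under GSK-126, against 12.9 and 12.1 RPKM under DPBS. DDB2, POLH, PERP (a membrane protein of apoptosis and desmosomes) and BAX followed (1.06, 1.01, 0.84 and 0.82), all of which had fallen after GSK-126 alone. The most negative were CCNG1 (-1.21) and TP53INP1 (-0.59). Against decitabine alone, the combination called 28 members in HepG2, 17 higher and 11 lower, where 55.8% of all genes were called (30% higher, 25.8% lower). TP53I3, a quinone oxidoreductase, and GADD45A, PLK2 and PLK3 were higher there (0.78, 0.36, 0.55 and 0.58), and CCNG1, MDM2 and TP53INP1 were lower (-1.04, -0.54 and -0.22).

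In SNU398 decitabine was followed by rises of PLK2, TP53INP1 and TP53I3 and by falls of the repair genes DDB2 and POLH. Of 31 members 18 were called, 13 higher and 5 lower, where 38.8% of all genes were called (23.4% higher, 15.4% lower), with a median of 0.06 beside 0.02 over all genes. With quantile normalization 11 members were higher and 4 lower, and higher genes made up 49.1% of all called genes in place of 60.4%. Without decitabine A, the library with raised hepatocyte markers, 12 members were called, 10 higher and 2 lower. BAX, TRIAP1, TNFRSF10B, PLK3, FDXR and ZMAT3 then lost their calls. The 5 fibroblast and stellate cell markers all rose after decitabine and after the combination in SNU398, to sums of 11.8 and 11.3 RPKM and of 13.2 and 13.9 RPKM, against 4.75 and 4.50 RPKM under DPBS, and their part in the changes of the members was not tested. PLK2 stood at 1.06 and 1.04 RPKM under decitabine, against 0.208 and 0.238 RPKM under DPBS (1.10 ± 0.06, adjusted p = 3.7e-09). TP53INP1 stood at 6.70 and 6.03 RPKM under decitabine, against 3.08 and 3.01 RPKM under DPBS (0.95 ± 0.06, adjusted p = 1.0e-08). TP53I3 stood at 9.34 and 9.13 RPKM under decitabine, against 5.90 and 5.94 RPKM under DPBS (0.60 ± 0.04, adjusted p = 4.8e-08). Growth arrest genes were again the group that moved most often, 5 of 6 higher, and 4 of 6 death receptors rose.

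DDB2 stood at 9.61 and 9.65 RPKM under decitabine in SNU398, against 12.2 RPKM in both DPBS libraries (-0.33 ± 0.06, adjusted p = 0.00025). POLH stood at 4.48 and 4.74 RPKM under decitabine, against 5.41 and 5.38 RPKM under DPBS (-0.21 ± 0.04, adjusted p = 0.0011). Both repair genes lay below DPBS in each library. MDM2 (14.8 and 13.9 RPKM under decitabine, against 15.5 and 14.6 RPKM under DPBS), BBC3 (0.900 and 0.973 RPKM, against 0.995 and 0.948 RPKM) and FAS (2.86 and 2.85 RPKM, against 2.92 and 3.05 RPKM) were not called (-0.07, -0.03 and -0.06). BAX stood at 4.68 and 4.57 RPKM under decitabine, against 5.10 and 5.20 RPKM under DPBS (-0.14), a call lost when any of these 4 libraries was left out.

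GSK-126 in SNU398 was followed by steep rises of a few stress-related members. TNFRSF10B (DR5), a TRAIL receptor that p53 and the unfolded protein response are both known to raise, stood at 33.4 and 33.5 RPKM under GSK-126, against 7.63 and 7.72 RPKM under DPBS (2.05 ± 0.03, adjusted p = 2.4e-16). GADD45A (hg19 chr1:68150744-68154021) stood at 13.3 and 13.9 RPKM under GSK-126, against 3.05 and 2.84 RPKM under DPBS (2.04 ± 0.04, adjusted p = 2.3e-14). TP53INP1 stood at 9.64 and 9.75 RPKM under GSK-126, against 3.08 and 3.01 RPKM under DPBS (1.52 ± 0.06, adjusted p = 1.4e-11). BBC3 stood at 2.76 and 2.90 RPKM under GSK-126, against 0.995 and 0.948 RPKM under DPBS (1.18), and PMAIP1 at 8.98 and 9.66 RPKM under GSK-126, against 4.77 and 4.29 RPKM under DPBS (0.97). The libraries of the 5 did not overlap. In all, 23 members were called, 15 higher and 8 lower, where 52.4% of all genes were called (30% higher, 22.4% lower), with a median of 0.14 beside 0.02 over all genes. SPATA18, which passed the filter through HepG2 alone, is among the higher calls at 0.0645 and 0.0682 RPKM, against 0.0199 and 0.00605 RPKM under DPBS. That call rests on 17 and 19 reads, against 7 and 2. Without further scaling 14 members were higher and 10 lower, and higher genes made up 38.3% of all called genes in place of 57.3%. All 6 growth arrest genes rose, by a median of 0.67.

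Other effectors fell. POLH stood at 3.002 and 3.05 RPKM under GSK-126 in SNU398, against 5.41 and 5.38 RPKM under DPBS (-0.74 ± 0.04, adjusted p = 9.7e-10). BAX stood at 2.89 and 3.06 RPKM under GSK-126, against 5.10 and 5.20 RPKM under DPBS (-0.70 ± 0.05, adjusted p = 5.2e-09). The pore protein BAX and its activators BBC3 and PMAIP1 thus changed in opposite directions. MDM2 (14.3 and 14.2 RPKM under GSK-126, against 15.5 and 14.6 RPKM under DPBS) and FAS (2.80 and 3.33 RPKM, against 2.92 and 3.05 RPKM) were not called (-0.08 and 0.03). Of the 23 calls 18 were kept in each of 12 alternatives, and those of CCNG1, AEN, PPM1D, TNFRSF10D and SPATA18 were lost in at least 1 of them.

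Under the combination in SNU398, TNFRSF10B and BBC3 were not called, and the interaction of both agents was negative for 12 members. TNFRSF10B stood at 7.37 and 7.51 RPKM under the combination, against 7.63 and 7.72 RPKM under DPBS (-0.04, not called), and BBC3 at 0.808 and 0.970 RPKM, against 0.995 and 0.948 RPKM (-0.09, not called). The interaction was -2.21 for TNFRSF10B, -1.55 for GADD45A, -1.25 for TP53INP1 and -1.23 for BBC3. Positive ones included POLH (0.78) and TP53I3 (0.59). Of the 31 members 17 had a called interaction, 5 positive and 12 negative, where 41.3% of all genes were called (18.4% positive, 22.8% negative). The split was 9 positive and 10 negative without further scaling (64.7% of all called genes positive, in place of 44.7%), and 5 positive and 10 negative without decitabine A. PLK2 was called at 0.47, but it lay near 0 under DPBS and lost its call with a pseudocount of 0.1 or in a fit to whole reads. Of the 17 called interactions, 1 took the other sign in an alternative.

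PLK2 had the highest change under the SNU398 combination, at 2.67 and 2.86 RPKM, against 0.208 and 0.238 RPKM under DPBS (2.17 ± 0.06, adjusted p = 1.5e-12). TP53INP1 stood at 7.86 and 7.73 RPKM under the combination, against 3.08 and 3.01 RPKM under DPBS (1.23 ± 0.06, adjusted p = 3.5e-10). TP53I3 stood at 11.05 and 10.5 RPKM under the combination, against 5.90 and 5.94 RPKM under DPBS (0.81 ± 0.04, adjusted p = 1.1e-09). All 3 had also risen after decitabine. DDB2 stood at 9.52 and 9.42 RPKM under the combination, against 12.2 RPKM in both DPBS libraries (-0.35 ± 0.06, adjusted p = 9.4e-05). BAX stood at 3.84 and 4.16 RPKM under the combination, against 5.10 and 5.20 RPKM under DPBS (-0.33 ± 0.05, adjusted p = 2.9e-05). MDM2 (14.6 and 15.04 RPKM under the combination) and FAS (3.002 and 3.19 RPKM) were not called (-0.02 and 0.04). The comparison called 18 members, 12 higher and 6 lower, where 47.3% of all genes were called (28.9% higher, 18.4% lower), with a median of 0.10 beside 0.03 over all genes. Quantile normalization gave 10 higher and 8 lower, with 49.2% of all called genes higher in place of 61.0%. Against decitabine alone 11 members were called, 6 higher and 5 lower, where 20.5% of all genes were called (12.5% higher, 8.07% lower), with PLK2 (1.07) and GADD45A (0.48) the largest. That count was 9 (5 higher, 4 lower) without decitabine A and 7 (3 higher, 4 lower) without decitabine B.

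**Figure D5:**
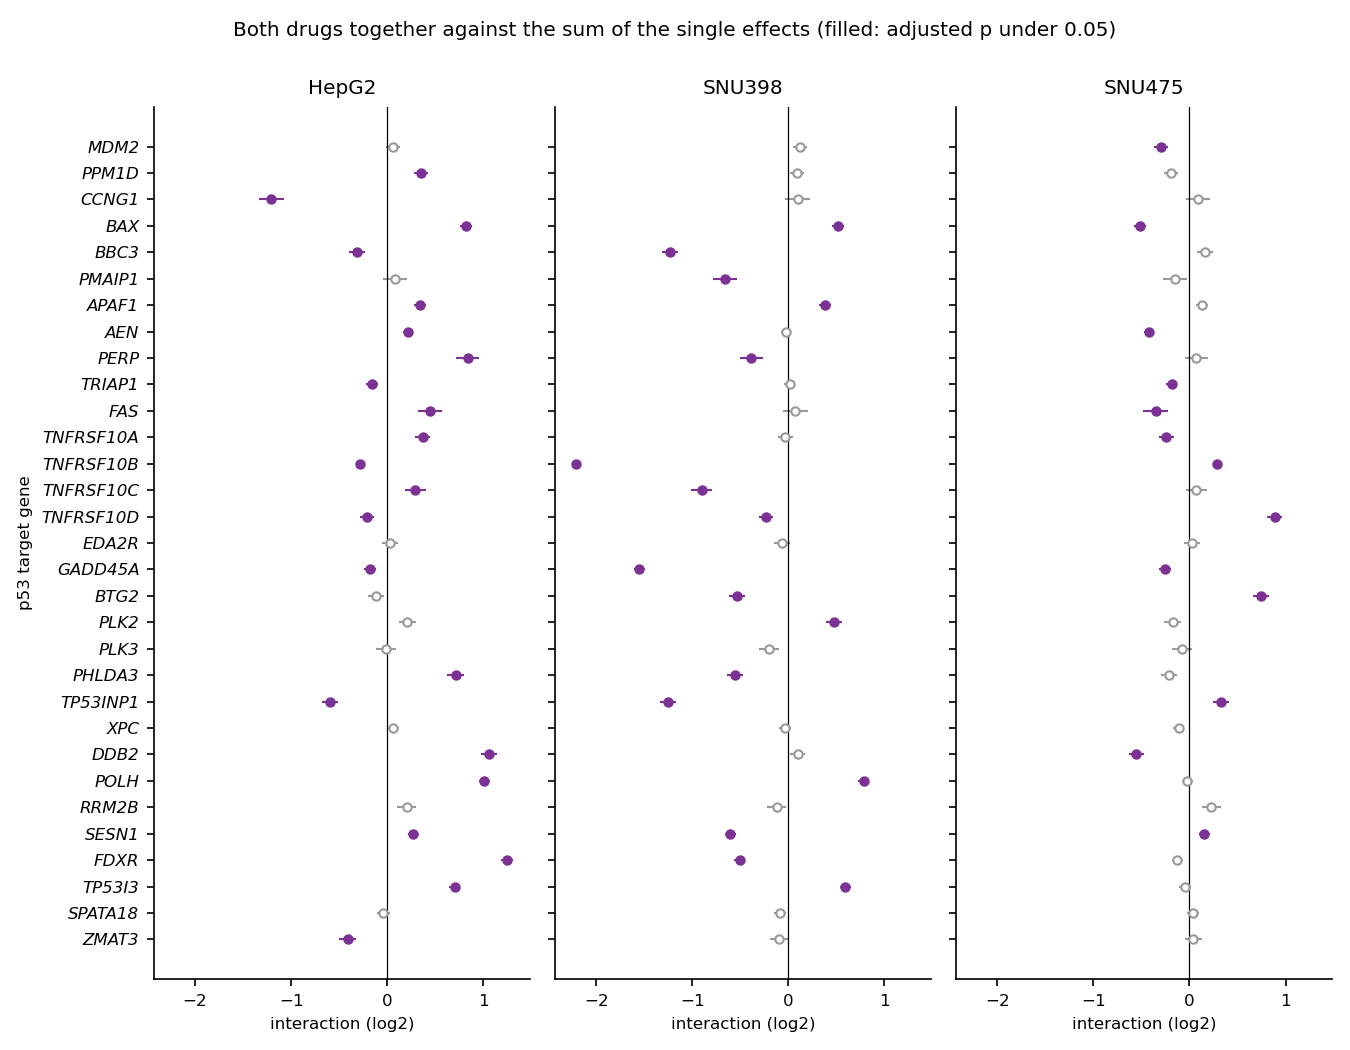
Interaction of both agents on the log2 scale for the members in each line; a value of 0 means that the combination equals the sum of the separate changes. TNFRSF10B in SNU398 lies lowest, at -2.21, and FDXR in HepG2 highest, at 1.25.

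In SNU475 the members AEN and GADD45A were higher and TP53INP1 and TNFRSF10D lower than DPBS under each of the 3 treatments. Decitabine called 20 members, 9 higher and 11 lower, where 51.4% of all genes were called (24.2% higher, 27.3% lower). GSK-126 called 12, 6 higher and 6 lower (50% of all genes, 21.5% higher and 28.5% lower). The combination called 18, 6 higher and 12 lower (54.9%, 25.3% higher and 29.6% lower), or 9 higher and 11 lower with quantile normalization. Medians were 0.03, -0.002 and 0.01, beside -0.01, -0.02 and -0.01 over all genes. The 3 comparisons share their 2 DPBS libraries, and DPBS A is the one with raised hepatocyte markers. Without it the counts were 20 (10 higher, 10 lower), 12 (6 higher, 6 lower) and 19 (7 higher, 12 lower).

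AEN, a p53-induced nuclease of apoptosis (hg19 chr15:89164527-89175513), stood at 5.15 and 5.01 RPKM under decitabine, 4.60 and 4.60 RPKM under GSK-126 and 5.54 and 5.57 RPKM under the combination, against 3.09 and 2.93 RPKM under DPBS (0.67 ± 0.04, 0.54 ± 0.04 and 0.79 ± 0.04; adjusted p = 7.2e-10, 8.7e-09 and 8.0e-11). GADD45A stood at 16.0 and 16.0 RPKM under decitabine, 14.3 and 14.3 RPKM under GSK-126 and 18.8 and 17.3 RPKM under the combination, against 10.2 and 10.9 RPKM under DPBS (0.58, 0.42 and 0.75). TP53INP1, which rose in the other lines, stood at 8.32 and 7.83 RPKM under decitabine, 9.66 and 9.14 RPKM under GSK-126 and 6.30 and 5.77 RPKM under the combination, against 16.5 and 15.2 RPKM under DPBS (-0.93, -0.72 and -1.32; adjusted p = 4.9e-09, 8.4e-08 and 6.8e-11). None of the 3 overlapped with DPBS under any treatment. TNFRSF10D stood at 4.03 and 3.89 RPKM under decitabine, 2.94 and 2.94 RPKM under GSK-126 and 2.89 and 2.84 RPKM under the combination, against 7.95 and 7.91 RPKM under DPBS (-0.92, -1.29 and -1.33). DDB2 stood at 5.53 and 6.29 RPKM under decitabine, 6.83 and 7.46 RPKM under GSK-126 and 6.12 and 6.28 RPKM under the combination, against 4.76 and 4.21 RPKM under DPBS (0.36, 0.62 and 0.43). BTG2, APAF1 and TNFRSF10B fell under each treatment (-0.83, -0.54 and -0.62; -0.44, -0.33 and -0.63; -0.28, -0.48 and -0.48).

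Death genes of SNU475 were divided. BAX stood at 13.0 and 13.2 RPKM under decitabine, 13.2 and 13.7 RPKM under GSK-126 and 12.03 and 12.2 RPKM under the combination, against 9.75 and 10.3 RPKM under DPBS (0.37, 0.41 and 0.27). BBC3 stood at 0.564 and 0.447 RPKM under decitabine, 0.762 and 0.769 RPKM under GSK-126 and 0.548 and 0.495 RPKM under the combination, against 0.886 and 0.896 RPKM under DPBS (-0.47, -0.14 and -0.45, the value for GSK-126 not called). BAX was thus higher in all 6 treated libraries and BBC3 lower. FAS stood at 2.72 and 2.73 RPKM under decitabine, 2.04 and 2.10 RPKM under GSK-126 and 2.40 and 1.98 RPKM under the combination, against 1.94 and 1.91 RPKM under DPBS, and was called for decitabine alone (0.41 ± 0.09, adjusted p = 0.0014; 0.08 and 0.15 for the others). ACTA2, which overlaps FAS, stood at 185 to 200.3 RPKM in the 6 treated SNU475 libraries, against 47.1 and 49.7 RPKM under DPBS. The sum of the 5 fibroblast and stellate cell markers was 194.3 to 219.6 RPKM in the treated libraries, against 50.65 and 53.37 RPKM under DPBS; 5, 4 and 5 of them rose after decitabine, GSK-126 and the combination. MDM2 stood at 10.02 and 9.70 RPKM under decitabine, 10.8 and 10.6 RPKM under GSK-126 and 9.55 and 8.71 RPKM under the combination, against 9.73 and 8.91 RPKM under DPBS; only GSK-126 was called (0.19), and that call was lost without DPBS B (0.13 to 0.25 and adjusted p up to 0.087 over 12 alternatives).

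The remaining members moved by smaller or line-bound amounts. In SNU398 PERP stood at 3.61 and 3.11 RPKM under decitabine, 4.09 and 3.67 RPKM under GSK-126 and 3.78 and 4.11 RPKM under the combination, against 2.56 and 2.25 RPKM under DPBS (0.41, 0.59 and 0.61), and all 6 treated libraries lay above both DPBS libraries. SESN1 in SNU398 stood at 3.73 and 3.92 RPKM under GSK-126, against 2.16 and 2.11 RPKM under DPBS (0.72), where in HepG2 it had fallen. TNFRSF10C in SNU398 was called after decitabine (0.51) and GSK-126 (0.56) and not after the combination (0.17). ZMAT3, an RNA-binding protein that acts in p53's tumour suppression, fell in SNU475 after decitabine and the combination (-0.51 each), at 2.87 and 2.67 RPKM and at 2.86 and 2.65 RPKM, against 4.27 and 4.02 RPKM under DPBS. RRM2B was not called in any treatment of SNU398 or SNU475, at 5.97 to 8.60 RPKM throughout, and XPC in SNU475 fell after decitabine (-0.20) and the combination (-0.42).

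The interaction in SNU475 was called for 13 members, 5 positive and 8 negative, where 36.4% of all genes were called (19.7% positive, 16.7% negative), and without further scaling 6 were positive and 5 negative. Without DPBS A the count was again 13, with 5 positive and 8 negative. TNFRSF10D (0.89) and BTG2 (0.75), both lower after each agent, had the largest positive values, and DDB2 (-0.55), BAX (-0.51) and AEN (-0.42), all higher after each agent, the most negative. Against decitabine alone, the combination called 12 members, 4 higher and 8 lower, where 18.3% of all genes were called (7.39% higher, 10.9% lower). GADD45A and TP53I3 were higher (0.17 and 0.21) and TNFRSF10A and TP53INP1 were lower (-0.49 and -0.39). The count was 8 whichever of the decitabine or combination libraries was left out.

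Most members responded differently in different lines, by the test of that difference. The difference of the decitabine effect was called for 24 members between SNU398 and HepG2, 6 higher and 18 lower in SNU398 (44% of all genes, 18% higher and 26% lower), and for 23 between SNU475 and HepG2, 5 higher and 18 lower in SNU475 (57.9%, 21.5% higher and 36.4% lower). For GSK-126 the counts were 26, 21 higher and 5 lower (52.3%, 27.3% higher and 25% lower), and 23, 14 higher and 9 lower (56.5%, 22.6% higher and 34% lower). For the combination they were 24, 10 higher and 14 lower (58.1%, 26.2% higher and 31.9% lower), and 25, 5 higher and 20 lower (64.6%, 24.8% higher and 39.8% lower). Without SNU398 decitabine A the first of these counts was 22 (4 higher, 18 lower), and without SNU475 DPBS A the 3 SNU475 counts were 23, 23 and 21. Of the 145 called differences 107 were called in every alternative run, 13 of 24 for decitabine in SNU398. EDA2R and SPATA18 in that comparison, and SPATA18 for the combination in SNU475, took the other sign in 1 alternative each. Both genes passed the filter through HepG2 alone and lie near 0 in the other lines. Their called differences therefore rest mainly on their HepG2 changes, and the counts above include them. Higher genes among all called moved by over 10 percentage points with the scaling in 4 of these 6 comparisons, and the members kept their majority in each: 6 higher and 12 lower (decitabine, SNU398, no further scaling), 4 higher and 16 lower (decitabine, SNU475, quantile normalization), 19 higher and 7 lower (GSK-126, SNU398, no further scaling) and 6 higher and 16 lower (combination, SNU475, quantile normalization). Called in 1 direction in all 3 lines were 3 members after decitabine (TNFRSF10A, GADD45A and PHLDA3, all higher), 3 after GSK-126 (GADD45A and PLK2 higher, APAF1 lower) and 3 after the combination (GADD45A, PHLDA3 and TP53I3, all higher). Of all genes tested 5.89%, 6.07% and 9.66% were called in 1 direction in all 3 lines after these treatments. The same members were called alike without SNU398 decitabine A, without SNU475 DPBS A and without both. GADD45A is in each of these sets. TNFRSF10A in SNU475 under decitabine (0.17) lost its call without decitabine B or DPBS B, and PLK2 in SNU475 under GSK-126 (0.26) lost it with quantile normalization.

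Other genes of the pathway were read from 3 lists. Of 25 further p53 targets, 17 rose and 4 fell after decitabine in HepG2 (35.9% and 18.3% of all genes), among them CDKN1A (1.22) and GDF15 (0.91), a stress cytokine. In HepG2 5 rose and 13 fell after GSK-126 (31% and 21.7% of all genes) and 16 rose and 7 fell after the combination (40.6% and 25.9%). SNU398 counts were 12 higher and 6 lower, 15 and 4, and 12 and 8, for decitabine, GSK-126 and the combination, where 23.4% and 15.4%, 30% and 22.4%, and 28.9% and 18.4% of all genes were higher and lower. Without decitabine A the first was 11 higher and 4 lower. GSK-126 raised GDF15 in SNU398 to 50.4 and 48.0 RPKM, against 1.73 and 1.61 RPKM under DPBS (4.52), and SESN2, a stress sestrin, to 96.9 and 93.9 RPKM, against 11.3 and 10.7 RPKM (3.06). Neither gene kept that level under the combination, at 5.17 and 6.04 RPKM and at 8.49 and 8.74 RPKM. SNU475 counts were 6 higher and 10 lower, 6 and 11, and 9 and 11, where 24.2% and 27.3%, 21.5% and 28.5%, and 25.3% and 29.6% of all genes were higher and lower. Without DPBS A they were 5 and 8, 5 and 8, and 8 and 10.

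The shares of all genes just given apply to the next lists too. Of 21 cell-cycle genes that p53 represses through p21 and the DREAM complex, 12 fell and 3 rose after decitabine in HepG2, 21 fell after GSK-126 (median -1.19) and 19 fell with none higher after the combination. CDK1, the mitotic kinase, changed by -0.82, -1.81 and -1.52. In SNU398 17 fell and 2 rose (15 and 1 without decitabine A), 21 fell (median -0.94), and 14 fell and 2 rose. SNU475 ran the other way, with 20, 21 and 20 genes higher and none lower, with the same counts without DPBS A (medians 0.61, 0.57 and 0.66), among them CDC20, which starts anaphase (1.08, 1.10 and 1.23). Among 15 tested regulators of p53, 9 rose and 5 fell after decitabine in HepG2, 6 and 4 after GSK-126, and 5 and 9 after the combination, where CDKN2A, the locus of p16 and of the MDM2 inhibitor ARF, rose most (1.81). SNU398 gave 5 and 3 (3 and 3 without decitabine A), 6 and 5, and 3 and 4. SNU475 gave 2 and 6, 4 and 6, and 2 and 6 (2 and 7, 3 and 6, and 2 and 6 without DPBS A), with the damage kinase ATM lower in each (-0.70, -0.59 and -0.85).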

How the data were processed

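RNA of 24 libraries was depleted of ribosomal RNA and sequenced, per the labels. The authors deposited RPKM values per gene; the submitters' processing notes name hg19, HISAT2 and featureCounts, without settings. Values at the steps of whole reads made up 99.54% to 99.95% per library within a tolerance of 0.15, and gave the depths. RPKM was scaled by median-of-ratios factors over 8211 genes (0.847 to 1.16), and log2(RPKM + 0.5) of genes with at least 0.5 RPKM in at least 2 libraries was fitted with limma 3.58.1 (R 4.3.3) over 12 group means, 12 residual degrees of freedom, trend and robust moderation, and Benjamini-Hochberg adjustment over 19377 genes. RPKM levels printed are scaled. The code was tested on simulated data. The members and lists were chosen with earlier results of these data known. Library values are given for MDM2, BAX, BBC3, FAS and, per drug comparison, the 3 highest and 2 lowest called members with at least 1 RPKM; further genes were named after their values were seen, apart from MDM4, CDKN1A and up to 3 genes per list. Some genes of the lists are not reported here and are left out of the counts. Alternatives were pseudocounts of 0.1 and 1, no further scaling, quantile normalization, no filter, single-line fits, a replicate block, libraries left out and, added after seeing the data, limma voom on recovered reads, list counts without SNU398 decitabine A or SNU475 DPBS A, and DPBS counts without EDA2R and SPATA18. Promoter sequences and their coordinates are from RefSeq, GRCh38.p14; gene coordinates are hg19, as deposited. Markers of other cell types were summed per library.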

Additional observations from a re-analysis of the deposited data

Results flagged for a closer look

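Drug effects on the 31 members differed between lines in 6 tests of the difference itself (limma interaction terms, adjusted over all genes). After decitabine 24 members differed between SNU398 and HepG2 (44% of all genes) and 23 between SNU475 and HepG2 (57.9%), after GSK-126 26 and 23 (52.3% and 56.5%), and after the combination 24 and 25 (58.1% and 64.6%). The members counted include EDA2R and SPATA18, which passed the filter through HepG2 alone. Called differences of that pair rest mainly on their HepG2 changes. Member by member, the largest differences of log2 changes were as follows. PLK3 differed by -1.17 between SNU398 and HepG2 after decitabine and by -1.65 after the combination. TP53INP1 differed by -1.86 between SNU475 and HepG2 after decitabine and by -2.04 after the combination. TNFRSF10B differed by 1.68 between SNU398 and HepG2 after GSK-126, and TNFRSF10D by -1.59 between SNU475 and HepG2. The SNU475 values carry a later harvest day, which cannot be told apart from the line.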

How the results depend on the processing

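Over 24 comparisons, 323 of 324 alternative counts of called members stayed within 1.5 times the count reported. The exception was the SNU398 combination against decitabine, 7 members without decitabine B against 11 (7 to 9 over the libraries left out). Leaving out a library changed a count by -6 to 1 members, and the other settings by -6 to 4. The largest swings of all called genes were in the same comparison, 2551 without decitabine B and 2636 without combination B against 3976, and in SNU475, 2286 without decitabine A against 3539. Of 186 calls of members against DPBS, 153 held in each alternative and 0 changed sign. For the named genes 1120 of 1140 alternative values kept direction and call, 14 lost a call, 6 gained one and 0 reversed. The replicate block gave 26 called members for decitabine in HepG2 against 25, and moved the counts by -1 to 2. Deviations of same-lettered libraries correlated at -0.118 to 0.244, which neither shows nor excludes a pairing by letter. limma voom on recovered reads called 19.2% to 80.6% of genes. With 2 libraries per group, small changes near the threshold depend on single libraries, and at levels under 1 RPKM the fold depends on the pseudocount.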
